A study of Mus musculus with 12 samples.

Results

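The genes described here encode 7 subunits of the GABA-A receptor, the chloride channel through which GABA gives fast inhibition: *Gabra2*, *Gabra4* and *Gabrb1* on chromosome 5, *Gabra5* and *Gabrg3* on chromosome 7, *Gabrb2* on chromosome 11 and *Gabra3* on chromosome X. They were chosen by name, as 7 of 19 GABA-A receptor subunit genes and 7 of the 21728 protein-coding genes compared. For each gene the number of peaks, the length under peaks ("covered length") and the percentile of the strongest peak within its own list were taken from 5 kb upstream of the gene start to the gene end (mm10). The gene was called higher or lower in cortical interneurons (CINs) when both CIN lists lay above, or below, both lists of the other cells (non-CINs). Histone H3 acetylated at lysine 27 (H3K27ac) marks active promoters and enhancers, and trimethylation of the same residue (H3K27me3) marks chromatin repressed by Polycomb.

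Both cell groups came from neocortex of mice heterozygous for *Gad67-GFP* at postnatal day 2 (P2), so all samples carried the GFP allele and none was treated. Each sample pooled tissue of 2 to 3 litters. GFP-positive cells were the CINs and GFP-negative cells the non-CINs, and native chromatin immunoprecipitation was sequenced for both marks in 2 replicates of each population. This gave 8 peak lists, 4 for each mark, while the 4 input samples entered only as controls of the peak calling. GFP reports GABAergic identity without separating interneuron subtypes, and the GFP-negative cells are a mixture of pallial neurons, glia and other cells. In such sorted populations a mark in fewer cells and a weaker mark in each cell cannot be told apart.

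The H3K27ac lists held 46040 to 62505 peaks and the H3K27me3 lists 36662 to 45081. *Gad1*, which encodes the GABA-synthesizing enzyme that drives the reporter, carried H3K27ac over 11344 bp in CIN replicate 1 and 9187 bp in CIN replicate 2, but over 219 bp in non-CIN replicate 1 and 0 bp in non-CIN replicate 2. Of 9 interneuron marker genes, 7 had more covered H3K27ac in both CIN lists, with summed lengths of 63642 to 75617 bp against 15789 to 17041 bp. Of 6 pallial neuron markers, 1 was higher and 1 lower in CIN (sums of 3490 to 7310 bp in CIN and 4610 to 6407 bp in non-CIN), and *Neurod2* and *Slc17a7* had no H3K27ac peak in any list. Of 5 glial markers, 3 were lower in CIN (47788 to 48532 bp against 68921 to 72918 bp), and of 3 markers of microglia and endothelium 1 was lower (6062 to 7900 bp against 9569 to 12071 bp), with *Cldn5* at 0 in all 4 lists. Glial markers therefore moved in the direction of the subunit genes that were lower in CIN, and their part in those results was not tested.

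A GABA-A receptor is built of several subunits around a pore, most often alpha and beta subunits with a gamma subunit. GABA binds between alpha and beta, benzodiazepines bind between alpha and gamma, and the alpha subunit influences where on the cell the receptor sits. The genes lie in clusters that mix these classes, on the chromosomes named above. In the immature cortex *Gabra2*, *Gabra3* and *Gabra5* are known as early alpha subunits, and *Gabra4* as a subunit of receptors outside the synapse.

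The start sites differed in sequence as well as in their marks. RefSeq (GRCm38.p6) holds 11 promoters for 7 of 7 genes, each from 250 bases before to 50 bases after a start. The *Gabra2* promoter had 70% GC and 25 CpG dinucleotides, the *Gabra5* promoter 56.7% GC and 13 CpG, and the *Gabra3* promoter with the upstream start 43% GC and 0 CpG, while the median over 32851 promoters was 52.7% GC and 7 CpG. These 3 are shown, 5′ to 3′ along the gene, because the *Gabra2* promoter lay under H3K27ac in all 4 lists, the *Gabra5* promoter under H3K27me3 in all 4 lists, and the *Gabra3* promoter under no peak of either mark. Capitals mark CG.
Gabra2 (chr5:71095800-71096099, minus strand): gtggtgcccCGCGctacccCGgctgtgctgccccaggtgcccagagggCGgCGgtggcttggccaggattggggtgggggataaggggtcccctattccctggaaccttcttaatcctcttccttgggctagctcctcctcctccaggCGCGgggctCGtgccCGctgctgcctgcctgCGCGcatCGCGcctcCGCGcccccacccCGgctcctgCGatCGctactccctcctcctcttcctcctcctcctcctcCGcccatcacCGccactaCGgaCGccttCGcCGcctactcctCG
Gabra5 (chr7:57510010-57510309, minus strand): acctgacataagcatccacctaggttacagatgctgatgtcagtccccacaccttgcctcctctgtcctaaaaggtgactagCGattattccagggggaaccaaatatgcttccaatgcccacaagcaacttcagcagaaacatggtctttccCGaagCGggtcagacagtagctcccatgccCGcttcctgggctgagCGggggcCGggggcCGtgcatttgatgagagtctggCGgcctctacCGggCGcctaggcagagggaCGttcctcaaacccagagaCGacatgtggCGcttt
Gabra3 (chrX:72656870-72657169, minus strand): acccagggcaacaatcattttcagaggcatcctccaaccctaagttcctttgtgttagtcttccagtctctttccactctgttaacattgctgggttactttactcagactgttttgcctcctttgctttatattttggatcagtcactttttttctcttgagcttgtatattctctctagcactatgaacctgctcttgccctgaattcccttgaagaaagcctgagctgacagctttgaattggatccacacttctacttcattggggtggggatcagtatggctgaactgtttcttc

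Of the other genes, the *Gabrb1* promoters had 25 CpG (the upstream start) and 9 CpG (the downstream start), *Gabrg3* had 13, *Gabra4* 12 and the 3 *Gabrb2* promoters 9 to 11. Both *Gabra3* promoters had 0 CpG. Among 32619 promoters on chromosomes 1 to 19 and X, 5.32% had 0 CpG, and 1.15% of those lay under H3K27ac in all 4 lists. Of the promoters with 10 or more CpG, 62.7% did so for H3K27ac and 7.92% for H3K27me3.

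Within 500 bp of the annotated gene start, *Gabra2* had an H3K27ac peak in all 4 lists, *Gabrb2* in 3 (not in non-CIN replicate 2) and *Gabra4* and *Gabrb1* in 1 (non-CIN replicate 1). *Gabra5*, *Gabrg3* and *Gabra3* had none. Thus 1 of 7 genes had H3K27ac at the start in all 4 lists, against 45.0% of all protein-coding genes. H3K27me3 stood within 500 bp of the *Gabra5* start in all 4 lists and of the *Gabrb1*, *Gabrg3* and *Gabrb2* starts in 1 list each. That is also 1 of 7 in all 4 lists, against a background of 8.89%. Within 1 kb of the start, *Gabrb2* joined *Gabra2* for H3K27ac and *Gabrg3* joined *Gabra5* for H3K27me3.

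**Figure D1:**
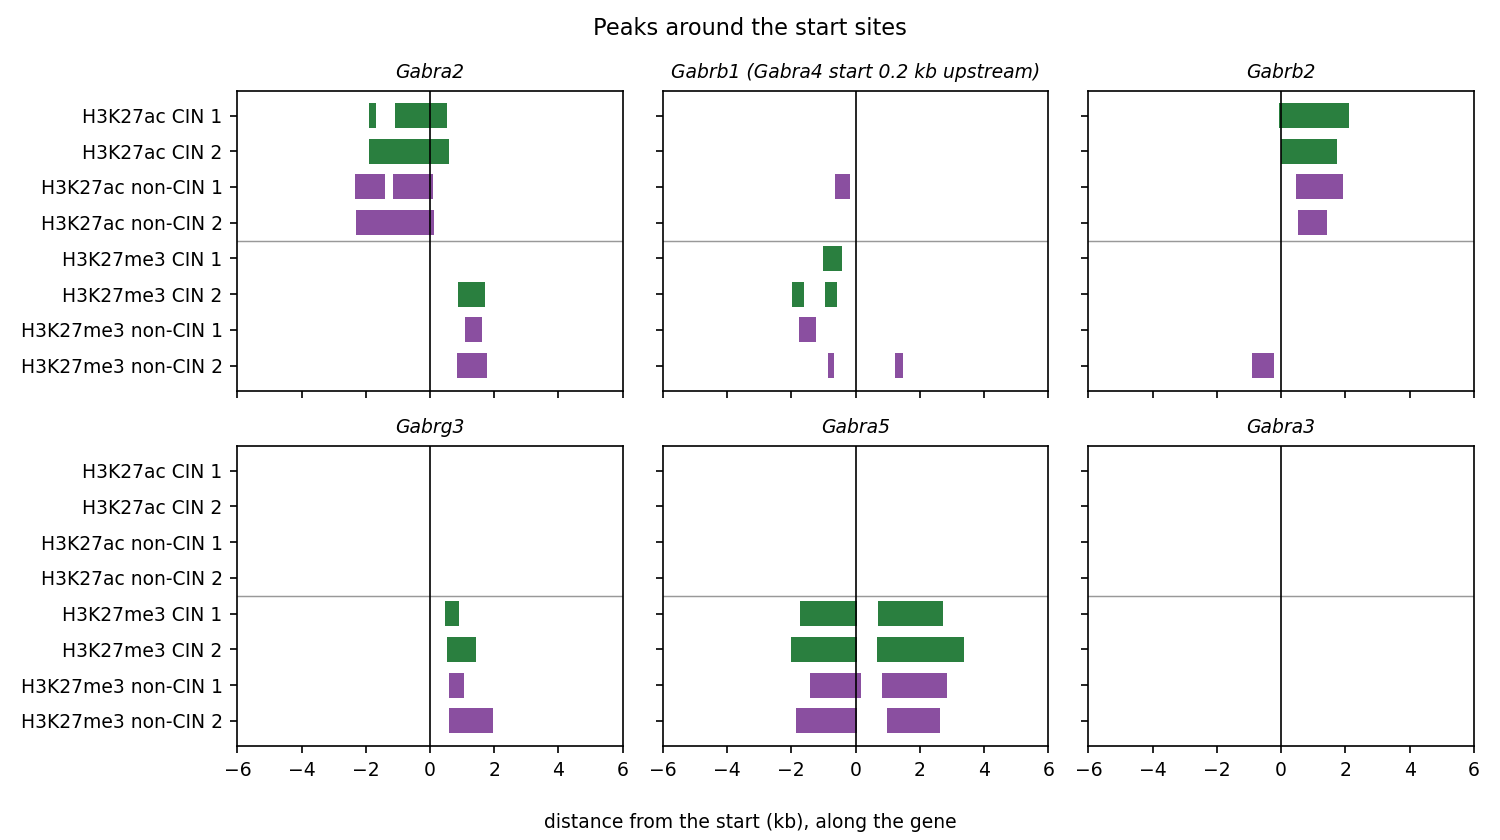
Peaks from 6 kb before to 6 kb after the start of 6 subunit genes, with distance along the gene in kb on the horizontal axis and 1 row for each of the 8 peak lists (mark, population, replicate). Bars are peaks, green for CIN and purple for non-CIN. The *Gabra4* start lies 195 bp downstream of the *Gabrb1* start, inside that gene, although the panel title places it upstream. *Gabra2* has H3K27ac across the start and mostly before it, *Gabrb2* at or just after the start. *Gabra5* has H3K27me3 on both sides of the start, and *Gabra3* has no peak.

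*Gabra2*, an alpha subunit gene of 6 annotated transcript starts on the minus strand (chr5:70957597-71095849), had the most H3K27ac per length of the 7. Its covered length was 3100 and 3455 bp in the CIN lists and 2956 and 3408 bp in the non-CIN lists. The populations overlapped, and the means of 3277.5 ± 251 bp (SD, n = 2) and 3182 ± 320 bp (n = 2) differed by less than either spread. Within each replicate number the CIN list was the longer, by 144 bp in replicate 1 and 47 bp in replicate 2. Over the gene body alone, without the 5 kb upstream, *Gabra2* was higher in both CIN lists by 701 bp on average, while with −log10 *q* of at least 4 the difference of the whole window was -358 bp. Most of this length lay in a single stretch over the promoter and first exon, from -2.339 to 0.595 kb relative to the start (negative values are upstream). The stretch was covered over 1836 and 2506 bp in CIN and 2201 and 2430 bp in non-CIN, and its strongest peak stood at the 71.0 and 60.2 percentiles of the CIN lists and the 61.7 and 40.7 percentiles of the non-CIN lists. In the first few kb of the gene, 0.833 to 1.78 kb past the start, H3K27me3 peaks of 864, 528 and 948 bp were called in CIN replicate 2 and non-CIN replicates 1 and 2, and none in CIN replicate 1.

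Inside *Gabra2*, the populations differed at single intronic elements in opposite directions. A peak 37.44 to 38.16 kb past the start was present in both non-CIN lists (526 and 719 bp, percentiles 52.6 and 32.8) and in neither CIN list. This non-CIN-only region of 526 bp ranked 471 of 2775 such regions in the genome by the lower of its percentiles. Around 100 kb past the start the CIN lists had a weak peak with no non-CIN counterpart (402 and 305 bp, percentiles 34.8 and 0.7), of which 193 bp were shared. Another intronic stretch, 83.82 to 84.39 kb past the start, was covered in all 4 lists (575, 401, 229 and 259 bp, in the order CIN 1, CIN 2, non-CIN 1, non-CIN 2), and a small CIN peak lay next to it (287 and 243 bp).

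*Gabra4* and *Gabrb1* start 195 bp apart and run in opposite directions, so that 10196 bp of their windows are shared and a peak there counts for both. H3K27ac was absent from this shared start in 3 lists. Non-CIN replicate 1 had a single peak of 449 bp there, at the 17.0 percentile. H3K27me3 peaks lay on the *Gabra4* side in every list, with 577 and 764 bp in CIN and 527 and 445 bp in non-CIN over the whole *Gabra4* window. No single H3K27me3 stretch there was shared by all 4 lists. The percentiles of the strongest peak in the window ran from 33.1 (non-CIN replicate 2) to 65.3 (CIN replicate 2). In non-CIN replicate 2 this peak, of 245 bp, lay on the other side, upstream of the *Gabra4* start.

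*Gabra4* (chr5:71569749-71658308, minus strand) was among the subunit genes with more H3K27ac in CIN. Its covered length was 1368 and 815 bp in CIN and 668 and 0 bp in non-CIN. Both CIN lists lay above both non-CIN lists, with means of 1091.5 ± 391 bp (SD, n = 2) and 334 ± 472 bp (n = 2). The difference rested on an intronic stretch 53.48 to 54.52 kb past the start, with 1046 and 815 bp in CIN (percentiles 69.6 and 43.0) and no peak in non-CIN. Its shared 815 bp (chr5:71603911-71604725) ranked 1299 of 4182 CIN-only H3K27ac regions. H3K27me3 was also longer in both CIN lists than in both non-CIN lists (means of 670.5 ± 132 bp and 486 ± 58 bp, n = 2 each). They overlapped with −log10 *q* of at least 4 and among the strongest 30000 peaks, and the H3K27me3 difference of 184.5 bp was 50 bp without replicate 2 and 319 bp without replicate 1.

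*Gabrb1*, a beta subunit gene spanning chr5:71658113-72149037 on the plus strand, had the longest H3K27ac coverage and less of it in CIN. The CIN lists covered 4591 and 4226 bp and the non-CIN lists 5294 and 5520 bp. The populations did not overlap, and the means were 4408.5 ± 258 bp (SD, n = 2) and 5407 ± 160 bp (n = 2), a difference of -998.5 bp. With −log10 *q* of at least 4 the difference was -349.5 bp and the populations overlapped, as they did by number of peaks and by percentile, while among the strongest 30000 peaks of each list they stayed apart by -1634.5 bp. Of 11 H3K27ac stretches, 3 were found in all 4 lists and 7 in 1 list only. The strongest of the 3 lay 318.1 to 319.5 kb inside the gene, in an intron, at percentiles of 78.8 and 85.2 in CIN and 80.1 and 90.3 in non-CIN. The longest ran from 73.59 to 76.21 kb, with 1847 and 2170 bp in CIN and 2025 and 2571 bp in non-CIN. No H3K27ac region of *Gabrb1* was called in both replicates of one population alone.

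The 2 marks met past the second annotated start of *Gabrb1*, which lies 41819 bp downstream of the first. The RefSeq promoter of this second start itself lay under no peak of either mark in any list. H3K27ac lay 42.41 to 43.48 kb past the first start in all 4 lists (913 and 723 bp in CIN, 835 and 903 bp in non-CIN). H3K27me3 lay 41.95 to 43.04 kb past it in 3 lists, with 509 and 845 bp in CIN and 515 bp in non-CIN replicate 1, and was not called in non-CIN replicate 2. The marks overlapped over 509 and 166 bp in CIN and 441 and 0 bp in non-CIN, and none of the other 6 genes had a base under both marks in any list. Over the whole gene H3K27me3 covered 1086 and 2221 bp in CIN and 1346 and 1539 bp in non-CIN, and the populations overlapped.

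**Figure D2:**
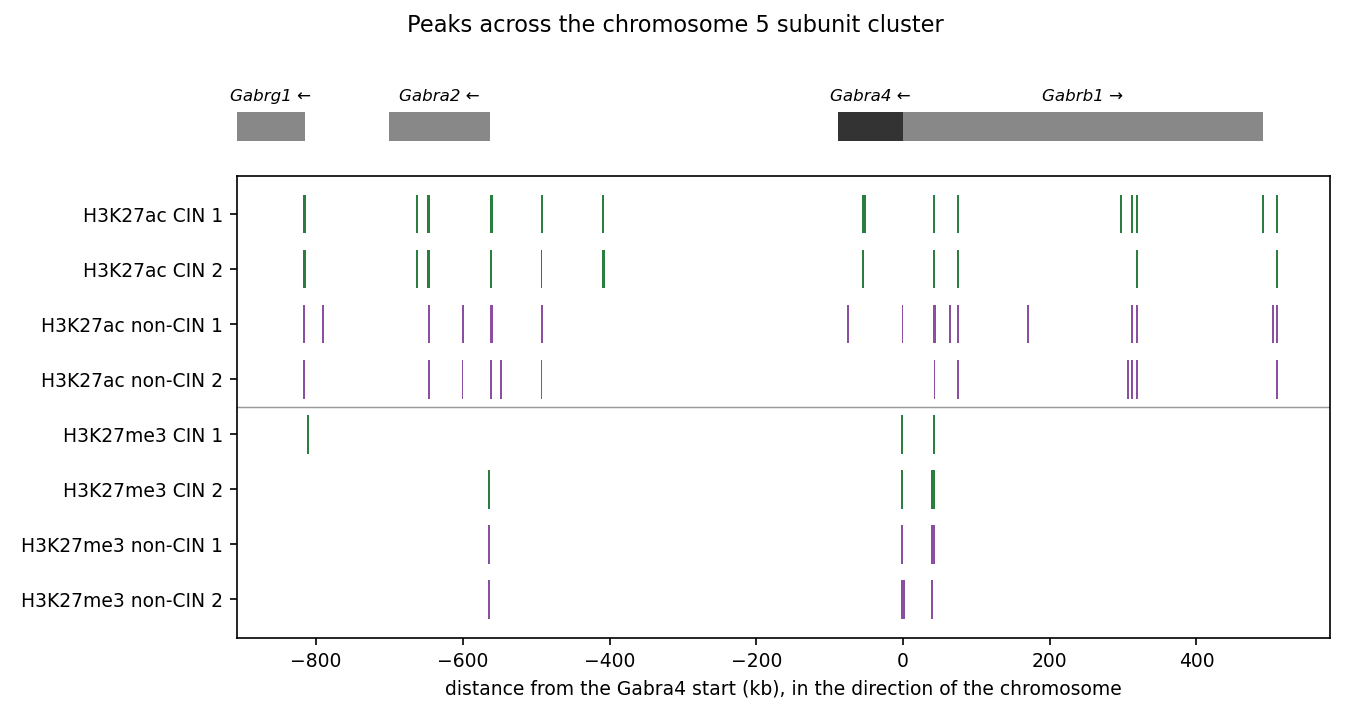
Peaks across the chromosome 5 cluster, with distance from the *Gabra4* start in kb on the horizontal axis, genes as grey boxes (arrows give their direction) and 1 row for each peak list, where bars under 2.5 kb are drawn 2.5 kb wide. CIN peaks are green and non-CIN peaks purple. H3K27ac is spread over the cluster, H3K27me3 is near the starts, and a CIN peak stands alone between *Gabra2* and *Gabra4*.

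The chromosome 5 cluster, with the gamma subunit gene *Gabrg1* at its other end, spans 1398 kb. H3K27ac covered 14577 and 13470 bp of it in CIN and 12100 and 13015 bp in non-CIN, and H3K27me3 covered 1479 to 3085 bp in the 4 lists. Neighbouring subunits thus took different directions: *Gabrg1* (2434 and 2562 bp in CIN, 2963 and 3174 bp in non-CIN) and *Gabrb1* were lower in CIN, *Gabra4* was higher and *Gabra2* overlapped. In the 468.9 kb between the *Gabra2* and *Gabra4* windows, H3K27ac covered 3084 and 2412 bp in CIN and 311 and 913 bp in non-CIN, and H3K27me3 was not called. Most of the CIN length lay in an intergenic stretch 152.1 to 154.6 kb upstream of the *Gabra2* start (chr5:71247931-71250450), singled out after its values were seen. It had 2469 and 2013 bp in CIN, at percentiles of 79.1 and 73.9, and no peak in non-CIN. Its longest shared part, 1749 bp, ranked 166 of 4182 CIN-only regions, ahead of the *Gabra4* and *Gabra2* introns. Which gene the stretch belongs to is not given by a peak list.

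The strongest elements of one population only in *Gabra4*, in *Gabra2* and between them are shown, the first of which carries the *Gabra4* difference, as the central 300 bases of the part shared by both lists (mm10, on the strand of the nearest subunit gene named). Capitals mark matches, on either strand, to cores of motifs named for factors of the interneuron lineage, TAATTA (DLX), CTTTGT (SOX) and CTGTCA (MEIS).
Gabra4 intron, CIN only (chr5:71604168-71604467, minus strand): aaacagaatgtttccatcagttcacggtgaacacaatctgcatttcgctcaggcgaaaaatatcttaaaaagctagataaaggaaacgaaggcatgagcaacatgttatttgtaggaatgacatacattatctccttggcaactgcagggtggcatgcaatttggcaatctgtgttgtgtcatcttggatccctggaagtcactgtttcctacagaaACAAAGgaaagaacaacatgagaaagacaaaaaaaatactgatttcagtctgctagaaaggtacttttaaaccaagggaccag
Upstream of Gabra2, CIN only (chr5:71248683-71248982, minus strand): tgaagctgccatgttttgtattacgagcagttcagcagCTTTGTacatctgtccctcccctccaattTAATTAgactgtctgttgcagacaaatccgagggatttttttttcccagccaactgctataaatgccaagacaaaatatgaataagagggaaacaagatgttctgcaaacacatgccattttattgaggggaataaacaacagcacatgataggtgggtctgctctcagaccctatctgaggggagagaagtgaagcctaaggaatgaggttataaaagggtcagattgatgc
Gabra2 intron, non-CIN only (chr5:71057975-71058274, minus strand): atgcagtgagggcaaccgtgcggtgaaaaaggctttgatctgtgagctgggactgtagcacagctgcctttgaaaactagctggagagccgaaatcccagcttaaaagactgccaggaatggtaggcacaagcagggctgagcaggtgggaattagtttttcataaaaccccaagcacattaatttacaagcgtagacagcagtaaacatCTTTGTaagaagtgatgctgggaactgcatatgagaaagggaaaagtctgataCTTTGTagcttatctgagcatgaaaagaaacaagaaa

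In these 300 bases the *Gabra4* element held 1 CTTTGT core, the element upstream of *Gabra2* 1 TAATTA and 1 CTTTGT, and the non-CIN element of *Gabra2* 2 CTTTGT. The whole shared parts held 3 CTTTGT (*Gabra4*), 2 TAATTA, 3 CTTTGT and 1 CTGTCA (upstream of *Gabra2*), and 2 CTTTGT and 1 CTGTCA (*Gabra2* intron). In the central 300 bases of 67697 merged H3K27ac regions, TAATTA was found in 8.56%, CTTTGT in 29.9% and CTGTCA in 22.1%. A match is no evidence of binding, and no matches overlap in these stretches.

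On chromosome 7, the alpha subunit gene *Gabra5* (chr7:57407672-57510059, minus strand), best known from the hippocampus and from receptors outside the synapse, had no H3K27ac peak in any list. H3K27me3 covered 3822 and 4748 bp in CIN and 3646 and 3545 bp in non-CIN. Both CIN lists lay above both non-CIN lists, with means of 4285 ± 655 bp (SD, n = 2) and 3595.5 ± 71.4 bp (n = 2). The difference of 689.5 bp was 176 bp without replicate 2 and 1203 bp without replicate 1, and the populations overlapped over the gene body alone and by number of peaks. All of the H3K27me3 lay at the start, in a stretch from -1.995 to 0.177 kb and another from 0.657 to 3.37 kb relative to it, each in all 4 lists. The strongest peak stood at the 97.1 and 95.8 percentiles of the CIN lists and the 89.7 and 93.1 percentiles of the non-CIN lists.

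*Gabrg3*, a gamma subunit gene with a window of 675.7 kb beside *Gabra5* on the same strand (chr7:56716465-57387188), had little of either mark for its length. H3K27ac covered 1150 and 660 bp in CIN and 1326 and 1815 bp in non-CIN. The populations did not overlap, with means of 905 ± 346 bp and 1570.5 ± 346 bp (SD, n = 2 each). The difference of -665.5 bp was -176 bp without replicate 2 and -1155 bp without replicate 1. The peaks were weak, with the strongest at the 43.2 and 14.9 percentiles in CIN and the 31.2 and 22.4 percentiles in non-CIN, and with −log10 *q* of at least 4 no covered length was left in any list. An intronic stretch 172.1 to 173.3 kb past the start was longer in non-CIN (200 and 275 bp in CIN, 948 and 1167 bp in non-CIN), on average by more than the whole difference. The other stretches together were longer in CIN in replicate 1 and shorter in CIN in replicate 2. A non-CIN-only region 336 kb past the start was 99 bp long and ranked 2199 of 2775. H3K27me3 lay 0.458 to 1.961 kb past the start in all 4 lists (440 and 898 bp in CIN, 474 and 1378 bp in non-CIN), and the populations overlapped. The 20483 bp between *Gabrg3* and *Gabra5* had no peak of either mark, so in this pair H3K27me3 lay across the *Gabra5* start and just past the *Gabrg3* start, and H3K27ac only within *Gabrg3* introns.

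*Gabrb2* (chr11:42419757-42629028, plus strand), which encodes a beta subunit of many synaptic receptors of the mature brain, had more H3K27ac in CIN, and it lay mainly at the promoter. The covered length was 2667 and 1931 bp in CIN and 1449 and 904 bp in non-CIN. The populations did not overlap, with means of 2299 ± 520 bp and 1176.5 ± 385 bp (SD, n = 2 each). The stretch at the start, from -0.054 to 2.126 kb, took 2181 and 1723 bp of it in CIN and all of it in non-CIN. Its 3 RefSeq promoters lay under this stretch in all 4 lists, although the non-CIN peaks began farther from the first annotated start. The percentile of the strongest peak was 80.6 and 64.0 in CIN and 46.6 and 68.5 in non-CIN, so strength overlapped where length did not. H3K27me3 was called only in non-CIN replicate 2 (667 bp, from -0.891 to -0.225 kb).

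*Gabra3*, an alpha subunit gene on chromosome X (chrX:72432681-72656848, minus strand), had no peak of either mark in any of the 8 lists. The stretch from *Gabre* to *Gabrq* around it, 586.6 kb, had no H3K27ac peak either, and H3K27me3 covered 0 and 1576 bp of it in CIN and 212 and 955 bp in non-CIN, outside *Gabra3*. Windows of 50 kb or more without a peak of either mark were 13.7% of 226 on this chromosome. An absent peak says that none passed the peak caller's threshold, and the depth of the lists is not known from the files.

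**Figure D3:**
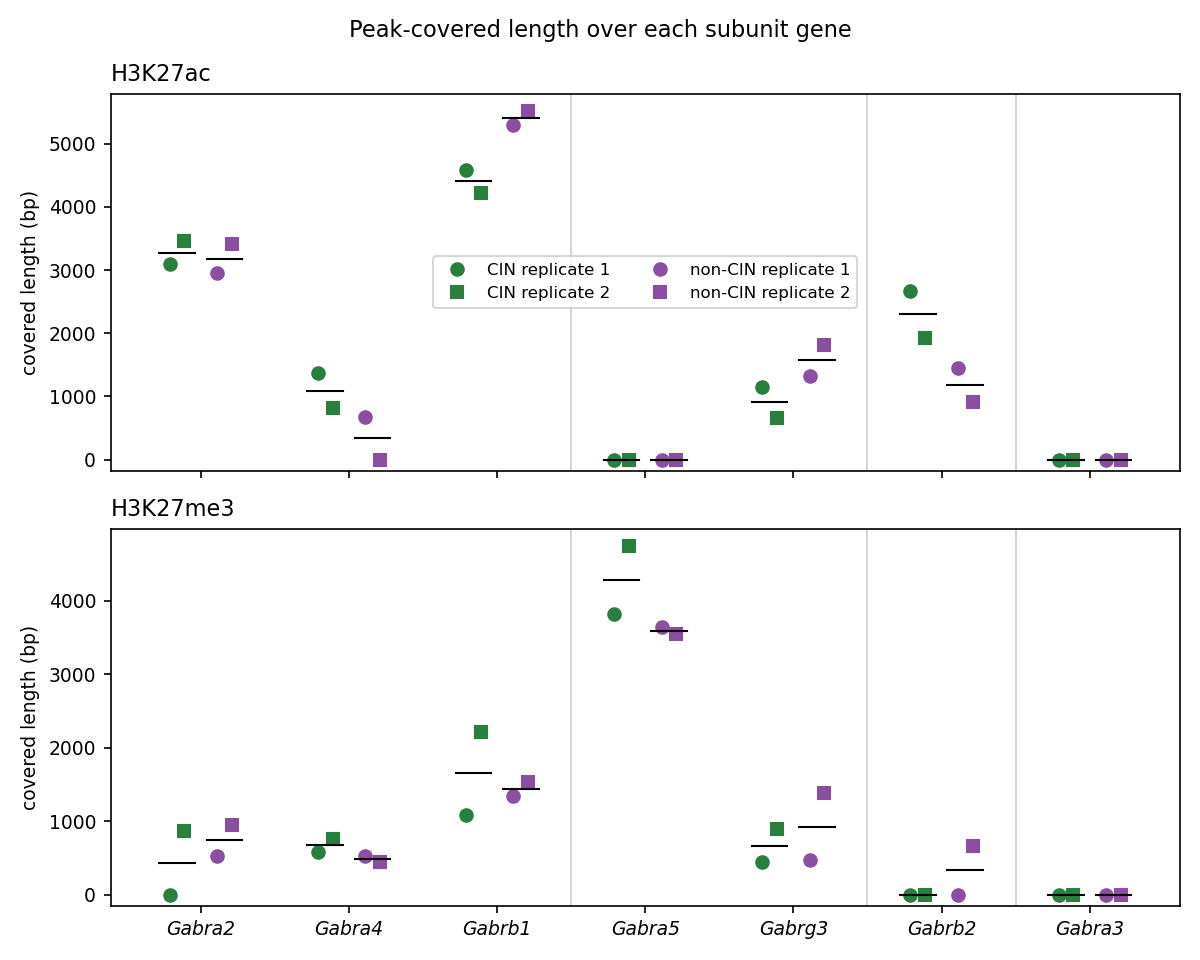
Covered length in bp (vertical axis) of H3K27ac and H3K27me3 over each of the 7 subunit genes, with 1 point per list (green CIN, purple non-CIN, circles replicate 1, squares replicate 2) and bars at the mean of 2. Grey lines separate chromosomes. *Gabra4* and *Gabrb2* are higher and *Gabrb1* and *Gabrg3* lower in CIN for H3K27ac, and *Gabra5* stands above the other genes for H3K27me3.

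Across the 7 genes, H3K27ac was higher in both CIN lists for *Gabra4* and *Gabrb2*, lower in both for *Gabrb1* and *Gabrg3*, overlapping for *Gabra2* and not called for *Gabra5* and *Gabra3*. Of 14645 protein-coding genes with H3K27ac in any list, 18.0% were higher and 18.0% lower by the same rule, and among 4973 genes with windows of 50 kb or more, 19.1% were higher and 19.5% lower. These shares leave out genes without a peak, as 2 of the 7 are, so the like count is 2 of 5 in each direction. Over all 5493 genes with long windows, with or without a peak, 17.3% were higher and 17.7% lower, against 2 of 7 in each direction. At these numbers nothing particular to the subunit genes can be read from the counts. With 2 lists on each side, the exact two-sided permutation test gives 0.333 for *Gabra4*, *Gabrb2*, *Gabrb1* and *Gabrg3*, the smallest *p* the design allows, and 0.667 for *Gabra2*, so no single difference can pass 0.05. Compared within each replicate number, *Gabra2* was also higher in CIN in both, by a looser rule for which no share of all genes was computed. The median difference per length was 0 bp per kb over the 7 genes and over the 5493. With a peak in any list it was 0.667 bp per kb over 5 subunit genes and 0.113 bp per kb over the 4973. No peak in any list was the state of 32.6% of all genes and of 9.47% of the 5493 with long windows, against 2 of 7 here.

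For H3K27me3, *Gabra4* and *Gabra5* were higher in CIN, none was lower, 4 overlapped and *Gabra3* had no peak. H3K27me3 was also higher in CIN in 2 of 5 glial markers (sums of 15736 to 17048 bp in CIN and 13592 to 13699 bp in non-CIN) and 2 of 6 pallial neuron markers (56019 to 62341 bp and 49949 to 54652 bp), with none lower, and it was lower in 5 of 9 interneuron markers (87469 to 103083 bp and 96051 to 102572 bp). The 3 markers of microglia and endothelium had none called (3277 to 4858 bp and 4292 to 5392 bp). The part of these cells in the *Gabra4* and *Gabra5* values was not tested. Of 8930 genes with this mark, 7.33% were higher and 11.1% lower, and of 3447 with long windows 7.08% and 14.5%. Over all 5493 genes with long windows, with or without a peak, 4.44% were higher and 9.12% lower. Compared within each replicate number, as a replicate block, *Gabra2* and *Gabrg3* were lower in CIN in both, so that 2 genes were higher and 2 lower for H3K27me3. This rule is looser, and the share of all genes called by it was not computed, so nothing is read from these counts. For *Gabra4* and *Gabra5* the exact two-sided permutation *p* was again 0.333.

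Per length, the mean H3K27ac coverage over the 4 lists was 22.5 bp per kb for *Gabra2*, 9.9 for *Gabrb1*, 8.11 for *Gabrb2*, 7.62 for *Gabra4* and 1.83 for *Gabrg3*. *Gabra2* (20.6 to 24.1 bp per kb) stood above the next genes in every list, and *Gabrg3* (0.977 to 2.69) below them except for *Gabra4* in non-CIN replicate 2. *Gabrb1* (8.52 to 11.1), *Gabrb2* (4.22 to 12.4) and *Gabra4* (0 to 14.6) could not be put in an order. Among the 5493 genes with long windows, *Gabra2* stood at the 50.4 percentile, *Gabrb1*, *Gabrb2* and *Gabra4* between the 25.4 and 29.6 percentiles and *Gabrg3* at the 13.8 percentile. For H3K27me3, *Gabra5* had 36.7 bp per kb and stood at the 87.0 percentile, and the next gene, *Gabra4*, had 6.18 bp per kb.

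**Figure D4:**
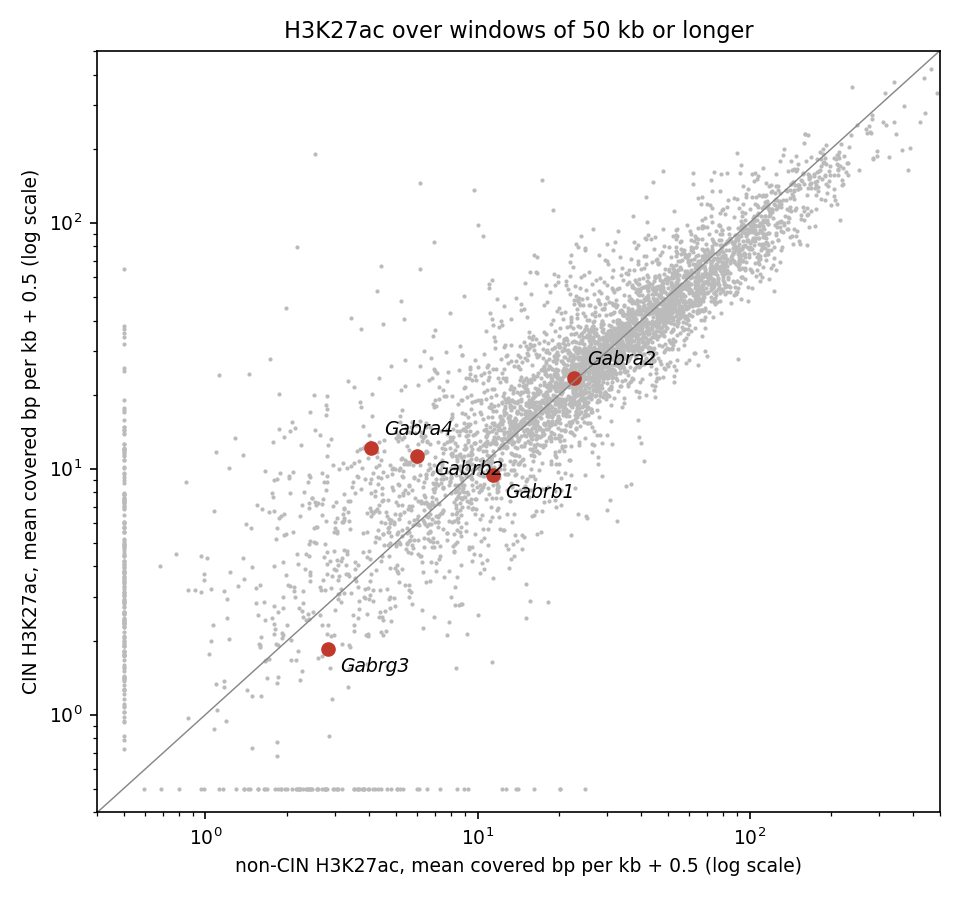
Mean H3K27ac coverage of the 2 CIN lists (vertical) and the 2 non-CIN lists (horizontal) in bp per kb plus 0.5, on log axes, for 4973 protein-coding genes with windows of 50 kb or more, with 5 subunit genes in red and the line of equality. *Gabra4* and *Gabrb2* lie above the line, *Gabrb1* and *Gabrg3* below it and *Gabra2* on it, all within the cloud of other genes, and *Gabra5* and *Gabra3*, at 0 in both, are not plotted.

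The gene nearest to each subunit gene in its 8 covered shares (percent of the window, Euclidean distance, 8 lists, 5493 genes) was *Sap130* for *Gabra2* (distance 0.483), *Aig1* for *Gabra4* (0.572), *Chchd3* for *Gabrb1* (0.382), *B4galnt3* for *Gabra5* (0.883), *Sgcz* for *Gabrg3* (0.222) and *Sema3e* for *Gabrb2* (0.301). None of these is a receptor subunit gene. *Gabra3* was tied with 225 genes at 0 in all lists.

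All 18 genes for anchoring and trafficking of the receptor and for the metabotropic GABA-B receptor had H3K27ac, and 15 had it at the start in all 4 lists (45.0% of all genes). In 3 it was higher in CIN, in 2 lower and in 13 overlapping, where 18.0% of all genes with the mark were called in each direction, so these counts do not stand out. The higher ones were *Plcl1* (18095 and 10755 bp in CIN, 7625 and 7586 bp in non-CIN), *Shisa7* and *Lhfpl4*, and the lower ones *Macf1* (means of 33871 and 44132 bp in CIN and non-CIN) and *Gphn* (2775 and 3118.5 bp). *Gphn* encodes gephyrin, the scaffold that holds GABA-A receptors at the synapse, and *Lhfpl4* and *Shisa7* encode membrane proteins that associate with the receptor. The largest differences per length in this list were those of *Gabbr2*, a GABA-B receptor subunit gene (71.2 and 116 bp of H3K27me3 per kb, CIN and non-CIN), *Nlgn2*, an adhesion protein gene of inhibitory synapses (198 and 164 bp of H3K27ac per kb, overlapping), and *Macf1* (99.7 and 130 bp of H3K27ac per kb). For H3K27me3, *Gabbr2* and *Plcl1* were lower in CIN, 5 genes overlapped and 11 had no peak, where 11.1% of all genes with the mark were lower. *Plcl1*, *Shisa7*, *Lhfpl4* and *Gphn* are named here after their values were seen.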

How the data were processed

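Native ChIP-seq for H3K27ac and H3K27me3 was available for 2 replicates each of CINs and non-CINs. The authors aligned reads with BWA 0.7.15 to mm10, kept reads of mapping quality 30 or more and called broad peaks with MACS2 (2.2.7 in the processing notes) for each replicate against its input, at a *q* cutoff of 0.01 with reads extended by 200 bp. The deposited lists give a score, a fold enrichment (ratio of ChIP to input), −log10 *p* and −log10 *q*, all computed by the authors' peak caller. Fold was ranked within its list and not compared between lists. Reads were not counted here, so the depth is unknown, and replicates of pooled litters measure only the spread between these samples.

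Peaks were intersected with windows of GENCODE vM21 protein-coding genes. Covered length was compared by overlap of the populations and by the exact permutation test. Regions of one population only were stretches of peaks (merged over 500 bp) that both replicates shared and that met no peak of the opposite population with the same number. The genes and gene lists were chosen with earlier results of these data known. The named genes are the 7 subunit genes, the nearest gene in pattern for each, the 3 receptor-associated genes with the largest difference per length, subunit genes of a described cluster, marker genes of the sort and the genes called in the receptor-associated list, the last chosen after their values were seen. Some other subunit genes are not reported here. Alternatives were other windows, thresholds, merging gaps, measures, single replicates and the replicate block. Calculations used matplotlib 3.10.9, pysam 0.24.0, SciPy 1.17.1 and NumPy 2.4.6 in Python 3.11.15. Tested on simulated data, 80 of 80 interval operations equalled bedtools 2.31.1, and 40 of 40 planted windows were called. The planted differences were far larger than those of the subunit genes, and false calls were not counted. The recovery of differences as small as those described here was therefore not tested.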

Additional observations from a re-analysis of the deposited data

How the results depend on the processing

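For H3K27ac, *Gabra4* and *Gabrb2* stayed higher in CIN under all 9 alternatives that use covered length, among them the stricter *q*, the strongest 30000 peaks of each list, merged peaks and the share of the list. The replicate block and the single replicate numbers, among the 9, could not change this, since the main call fixes the sign within each number. By number of peaks 1 gene was higher (*Gabrb2*) and by the percentile of the strongest peak 1 (*Gabra4*). The genes lower in CIN numbered 0 with −log10 *q* of at least 4, 1 (*Gabrb1*) among the strongest 30000 peaks, and 0 by number of peaks and by percentile, so *Gabrg3* in particular rests on weak peaks. For H3K27me3, the genes higher in CIN numbered 1 with the gene body alone (*Gabra4*), 1 with the stricter *q* and 1 among the strongest peaks (*Gabra5* in both), 0 by number of peaks and 3 by percentile (*Gabra4*, *Gabrb1* and *Gabra5*).

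The replicate numbers are not said to mark a shared litter or batch. Over all genes with peaks, deviations of same-numbered lists from their population means correlated at 0.552 for H3K27ac (14645 genes) and 0.779 for H3K27me3 (8930 genes). With the replicate block, where the sign had to hold within each number, *Gabra2* joined the H3K27ac genes higher in CIN (3 genes), 2 stayed lower, 2 were higher for H3K27me3, and 2 (*Gabra2* and *Gabrg3*) were lower for H3K27me3 where the comparison of all lists gave 0. Leaving out one replicate number gave 3 H3K27ac genes higher and 2 lower, 2 to 3 H3K27me3 genes higher and 3 lower. Genes called from all lists keep their call in both comparisons by construction. The share of all genes called by these looser rules was not computed, so nothing is read from the counts. No replicate block left 2 CIN-only and 2 non-CIN-only H3K27ac regions, and for H3K27me3 0 CIN-only and 1 non-CIN-only region.

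Of the 2 CIN-only and 2 non-CIN-only H3K27ac regions, 1 and 1 were left with a reciprocal overlap of 50%, 1 and 1 with the stricter *q*, and 1 and 0 among the strongest peaks, where H3K27me3 gave 2 CIN-only regions. Leaving out a replicate number raised them to 3 to 10 and 4 to 6 for H3K27ac and, for H3K27me3, to 1 to 3 CIN-only and 2 to 3 non-CIN-only regions, since a single pair of lists then decides. Within 1 kb of the start, 2 genes had H3K27ac and 2 had H3K27me3 in all 4 lists, and the same 2 and 2 were found with any annotated transcript start. Of 77 recomputed differences of single genes, 65 moved by less than the spread between replicates, 12 moved more and 0 of the called ones changed sign. Leaving out a replicate number could not reverse a called gene. Unknown read depth limits what an absent peak means.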
